A study of Mus musculus with 9 samples.

Results

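The integrated stress response and the stress cytokine Gdf15 were examined through 10 genes, namely Gdf15, Atf4, Atf5, Ddit3, Trib3, Chac1, Asns, Sesn2, Phgdh and Psat1, picked by symbol out of the 29763 named genes in a table of transcript abundance. All 10 were found and all 10 passed the filter on low values, under which a gene needed 1 TPM or more in 3 or more of the 9 libraries. TPM is transcript abundance corrected for transcript length and scaled to a fixed total per library. The libraries were made from polyadenylated RNA of bone marrow-derived macrophages, primary mouse macrophages that were grown from marrow for 7 days in medium holding 30% L929 supernatant, a source of macrophage colony-stimulating factor. There were 3 genotypes with 3 libraries each, namely Ndufa4l3-miR147 KO, Ndufa4 KO and wild type (WT). Ndufa4 is a small protein bound to complex IV of the mitochondrial respiratory chain, and Ndufa4l3, also named Nmes1, is a related protein whose gene also carries the microRNA miR-147, so loss of the protein and loss of the microRNA cannot be told apart in that knockout. Every macrophage culture, WT included, had received interferon-gamma at 40 ng/ml for 12 h, so the values compare genotypes in stimulated cells and say nothing of the response to interferon-gamma itself. The number of mice is not given in the sources used here, and the labels call the replicates technical, so p-values measure only the spread between libraries.

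The integrated stress response starts when a kinase such as Perk, Gcn2, Pkr or Hri phosphorylates the translation factor eIF2alpha, which slows protein synthesis in general while favouring translation of the transcription factor ATF4. ATF4, often with ATF5 and CHOP (the product of Ddit3), then raises transcripts for amino acid supply, for redox balance and for feedback on the pathway. Mitochondrial faults are a known trigger, and Gdf15, a secreted member of the TGF-beta superfamily that acts on the brainstem receptor GFRAL, is a widely used readout of them. The table holds mRNA only, so neither eIF2alpha phosphorylation nor ATF4 protein was measured.

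The libraries held 10809 to 10959 genes at 1 TPM or more, and their read depth is unknown because TPM keeps none. Ndufa4 KO replicate 3 stood apart, with an upper quartile of 7.79 TPM against 9.24 to 9.84 TPM in the other 8 libraries. Across 10673 genes, the Ndufa4 KO against WT fold change correlated with transcript length at a Spearman rho of -0.22, and at -0.01 once that library was left out, so results that rest on it are also given without it. AA467197, the symbol under which Ndufa4l3 is listed, averaged 3.21 ± 1.18 TPM in Ndufa4l3-miR147 KO, 506 ± 29.6 TPM in Ndufa4 KO and 359.5 ± 5.24 TPM in WT (SD, n = 3 each). Ndufa4 itself was listed at 0 in 7 of the 9 libraries, WT among them, and at no more than 0.621 TPM in the others, so it gave no check of the Ndufa4 KO label. All 9 macrophage markers were well above 1 TPM, and their summed level was 8856 to 9051 TPM in Ndufa4l3-miR147 KO, 9789 to 10243 TPM in Ndufa4 KO and 9275 to 9412 TPM in WT. The sum is dominated by Lyz2, with means of 4094, 5414 and 4585 TPM in the same order of genotypes. The other macrophage markers went both ways in mean between Ndufa4 KO and WT. Cd14 was lower with 85.2 against 153 TPM, Mertk with 16.0 against 22.9 TPM and Mrc1 with 28.2 against 38.4 TPM. Itgam had 149 against 160.1 TPM, with 126 TPM in Ndufa4 KO replicate 3 and 162 and 159 TPM in replicates 1 and 2. Fcgr1 (640 against 668 TPM) and Csf1r (964 against 971 TPM) were slightly lower. Cd68 (2373 against 2340 TPM) and Emr1 (419 against 408.5 TPM) were slightly higher. Of the marker lists for other cells, 4 of 8 fibroblast genes reached a mean of 1 TPM, with summed levels of 37.7 to 46.1, 6.96 to 131 and 7.72 to 45.1 TPM in that order. The 131 TPM is Ndufa4 KO replicate 3, in which Col3a1 alone had 116 TPM. Dendritic cell markers reached it for 2 of 7 genes, with 30.1 to 35.4, 40.9 to 76.7 and 27.9 to 29.8 TPM. Neutrophil and progenitor markers did so for 3 of 10 genes (10.4 to 21.2, 0.681 to 10.1 and 0.740 to 20.3 TPM), erythroid and mast cell markers for 3 of 8 (126 to 173, 82.0 to 121 and 108 to 239 TPM) and lymphocyte and NK cell markers for 0 of 8, and no marker was at 0 in every library. The part of these cells in the results below was not tested, and in bulk RNA fewer cells of a type cannot be told apart from less RNA per cell.

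The promoters of the 10 genes were read from RefSeq on GRCm38.p6, as 250 bases before to 50 bases after each annotated start, and gave 13 windows. The expression table carries no coordinates, and the submitters' processing notes name both mm10 and GRCm39, so the windows describe the genes and not the counted reads. TGATGNAA, the composite element at which C/EBP and ATF proteins such as CHOP and ATF4 can pair, was looked for on both strands and matched 3 of the 13 windows, each of a different gene, against 3.97% of 32851 mouse promoters of the same length. Counts of the 10 genes below pool the windows of a gene, whereas the shares over all promoters count single windows. The 4 windows shown are those 3 and 1 of the 2 RefSeq windows of Gdf15, the gene that differed most. No motif looked for matched either Gdf15 window, and the one shown holds the start at which the GENCODE annotation also places the gene. Capitals mark the match, which lies on the opposite strand at bases 15 to 22 after the start in Trib3 (chr2:152344011-152344310, minus strand), on the opposite strand at -193 to -186 in Chac1 (chr2:119350992-119351291, plus strand) and on the same strand at -23 to -16 in Asns (chr6:7693160-7693459, minus strand). The Gdf15 window is chr8:70632407-70632706 on the minus strand.
Gdf15: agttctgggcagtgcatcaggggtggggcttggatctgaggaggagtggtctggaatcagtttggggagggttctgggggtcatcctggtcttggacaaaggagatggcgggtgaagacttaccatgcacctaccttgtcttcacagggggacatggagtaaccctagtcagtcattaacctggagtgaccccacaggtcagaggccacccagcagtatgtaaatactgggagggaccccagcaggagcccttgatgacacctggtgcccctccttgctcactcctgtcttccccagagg
Trib3: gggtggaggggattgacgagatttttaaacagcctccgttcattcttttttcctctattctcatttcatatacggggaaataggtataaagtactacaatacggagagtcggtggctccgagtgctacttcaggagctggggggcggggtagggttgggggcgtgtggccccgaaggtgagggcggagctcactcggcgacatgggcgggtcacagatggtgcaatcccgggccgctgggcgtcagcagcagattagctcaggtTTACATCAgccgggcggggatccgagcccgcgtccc
Chac1: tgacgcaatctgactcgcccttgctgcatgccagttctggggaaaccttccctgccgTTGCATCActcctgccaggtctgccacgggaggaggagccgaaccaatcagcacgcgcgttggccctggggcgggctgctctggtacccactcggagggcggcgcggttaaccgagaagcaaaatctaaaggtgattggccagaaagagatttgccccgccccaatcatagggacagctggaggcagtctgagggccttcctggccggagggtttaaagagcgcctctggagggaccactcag
Asns: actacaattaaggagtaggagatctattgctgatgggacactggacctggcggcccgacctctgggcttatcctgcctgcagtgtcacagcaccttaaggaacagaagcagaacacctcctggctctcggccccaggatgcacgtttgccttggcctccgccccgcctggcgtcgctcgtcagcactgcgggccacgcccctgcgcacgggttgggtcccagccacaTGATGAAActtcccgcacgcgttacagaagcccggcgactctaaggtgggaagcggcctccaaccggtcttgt
Among the other motifs, TGACGTCA (the cyclic AMP response element) matched 0 of the 10 genes, against 1.79% of all promoters. TGAGTCA, an AP-1 element, matched Ddit3 on the opposite strand at -242 to -236, against 5.2% of all promoters, and no matches overlapped. The full p53 site matched 0 of the 10 genes, against 0.0731% of all promoters. A match is a string of letters and not a binding site, and a window without one says nothing of the factor.

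Transcript levels of the 10 genes spanned a wide range in every genotype. In WT macrophages Atf4 was highest with a mean of 237 TPM, followed by Ddit3 with 119 TPM, Psat1 with 75.7 TPM and Asns with 46.7 TPM. Phgdh and Atf5 came next with 32.2 and 31.0 TPM and Trib3 and Sesn2 after them with 12.8 and 12.0 TPM, and the libraries of each of these neighbouring pairs overlapped. Gdf15 and Chac1 were lowest with 10.7 and 4.22 TPM. Ndufa4l3-miR147 KO macrophages kept this order except that Atf5 stood above Phgdh, and there no neighbours overlapped. In Ndufa4 KO macrophages the libraries of Ddit3 and Psat1 overlapped, as did those of Atf5 and Phgdh, and Gdf15 had come down into the range of Chac1.

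**Figure D1:**
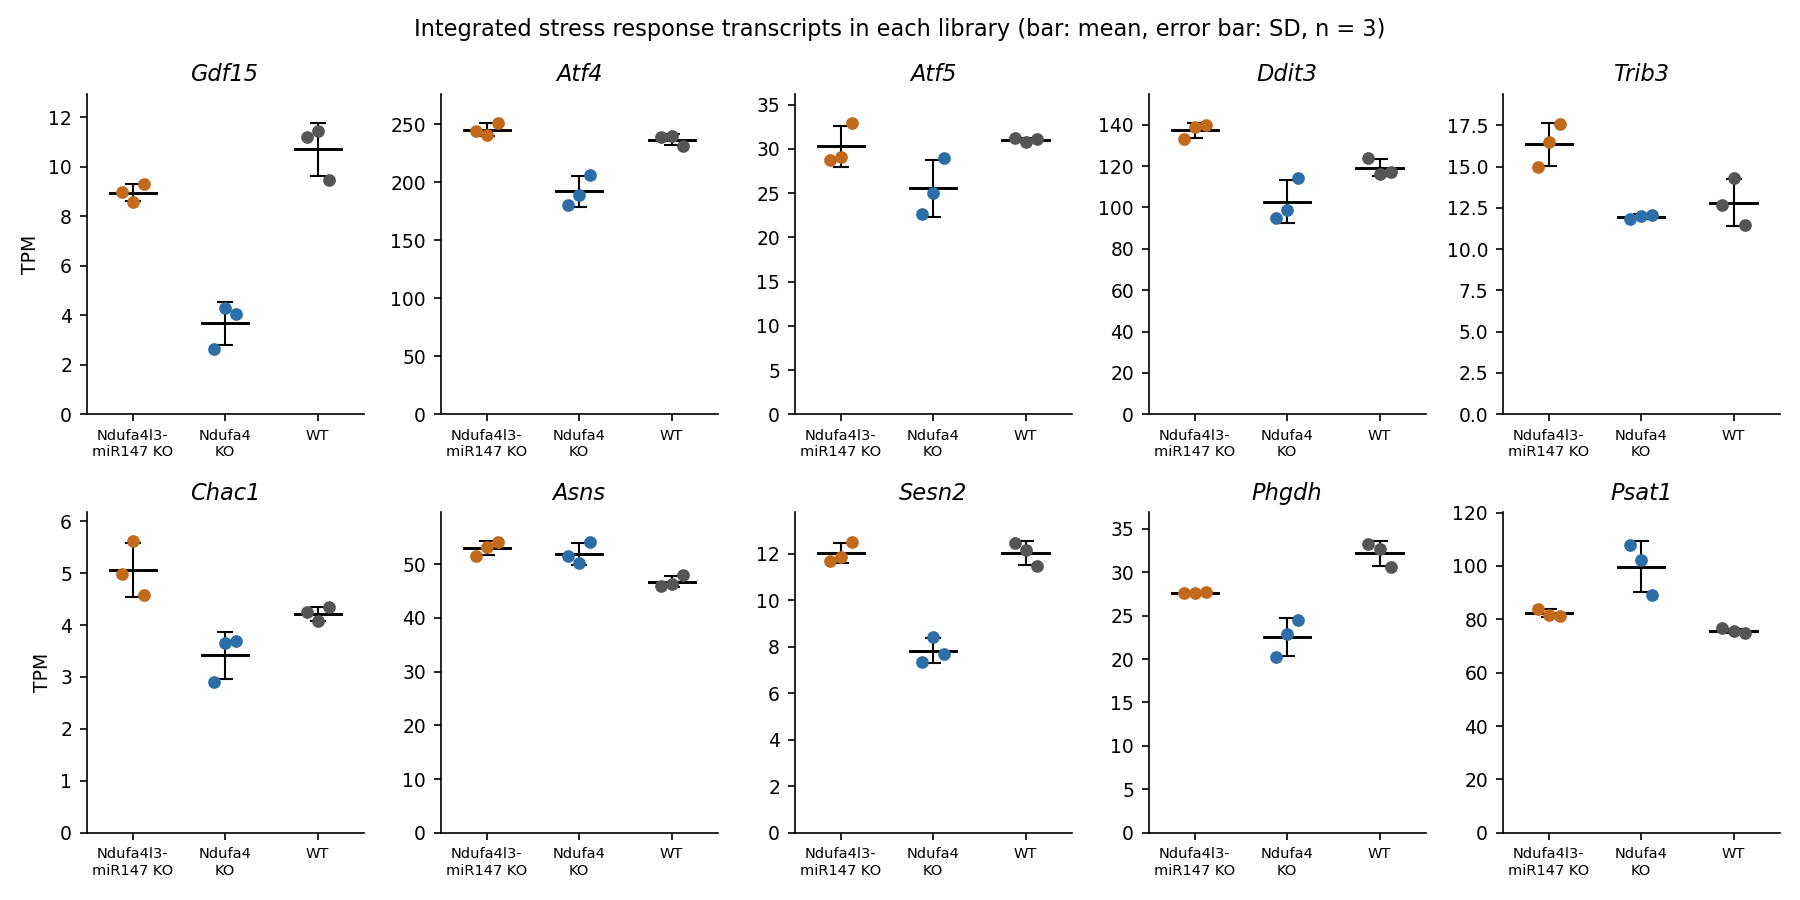
Abundance of each of the 10 genes in TPM on a linear axis from 0, with 1 point per library, the mean as a bar and the SD as an error bar (n = 3). The 3 Ndufa4 KO points of Gdf15 lie between 2.66 and 4.29 TPM, below all Ndufa4l3-miR147 KO and WT points, and those of Psat1 lie above both.

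Loss of Ndufa4 went with lower Gdf15, Sesn2, Phgdh and Atf4 and with higher Psat1, whereas no gene of the 10 was called after loss of Ndufa4l3-miR147. A gene was called where limma gave a Benjamini-Hochberg adjusted p under 0.05 over the 11133 genes tested. In Ndufa4 KO against WT, 5 of the 10 were called, 1 higher and 4 lower, where 8.59% of all genes tested were called, 2.83% higher and 5.76% lower. In Ndufa4l3-miR147 KO against WT, 0 of the 10 were called by limma and 4 had an unadjusted p under 0.05, against 0.431% of all genes called and 8.24% at an unadjusted p under 0.05. Between the knockouts, Ndufa4l3-miR147 KO against Ndufa4 KO, 5 were called, all higher, where 3.24% of all genes were called, 2.2% higher and 1.04% lower. Both comparisons against WT use the same WT libraries. The median log2 fold change of the 10, on the log2(TPM + 1) scale used throughout, was 0.09 for Ndufa4l3-miR147 KO against WT, -0.26 for Ndufa4 KO against WT and 0.39 between the knockouts, and that of all genes tested was 0.00, -0.08 and 0.07. The all-gene balance depends on scaling, since 32.9% of calls were higher in Ndufa4 KO against WT with TPM as deposited and 52.7% after median-of-ratios scaling, and between the knockouts 67.9% and 49.7%.

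**Figure D2:**
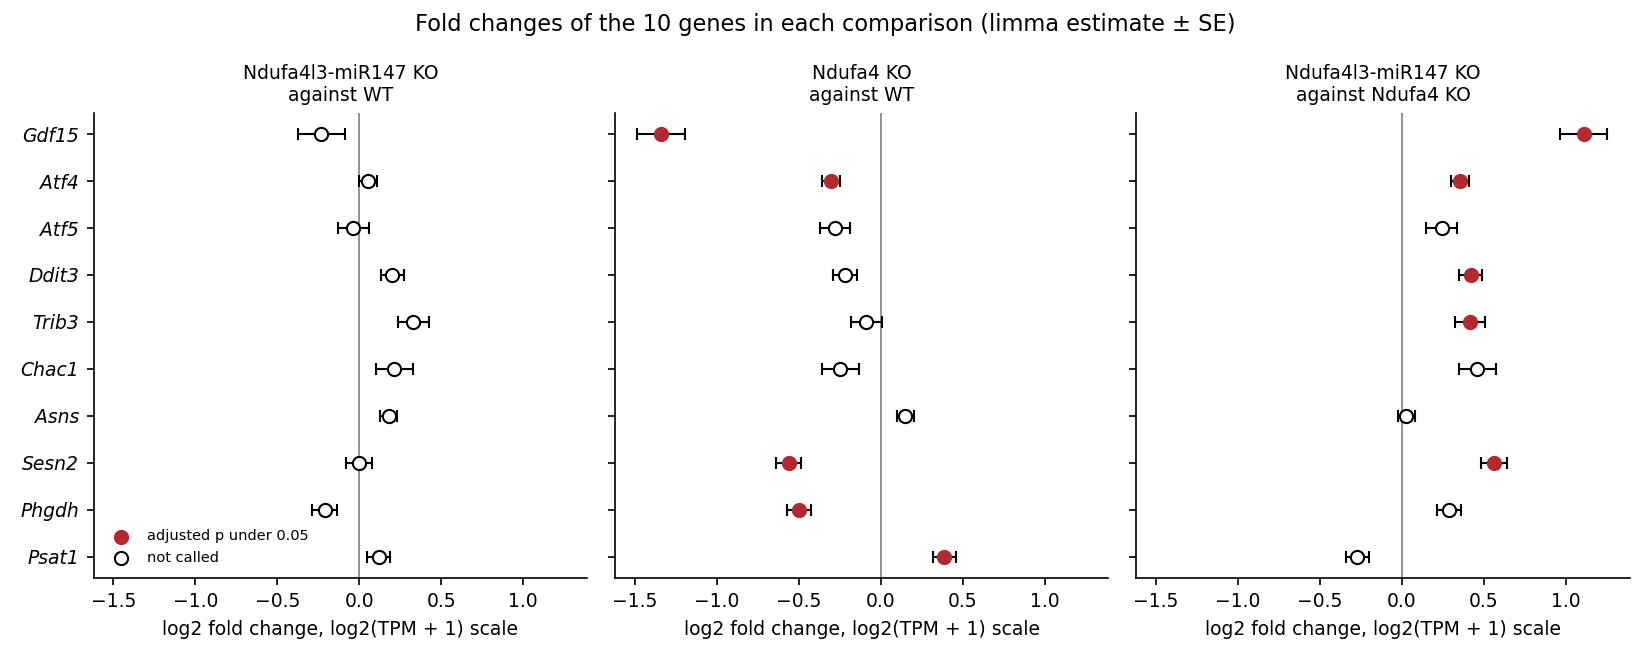
Log2 fold change of each gene on the log2(TPM + 1) scale with its SE, in 1 panel per comparison, filled where the adjusted p was under 0.05. The left panel has no filled point, the middle panel has 1 to the right of 0 and 4 to the left, and the right panel has 5, all to the right.

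Gdf15 differed most among the 10. Its abundance was 8.96, 8.59 and 9.28 TPM in Ndufa4l3-miR147 KO, 2.66, 4.29 and 4.06 TPM in Ndufa4 KO and 11.2, 11.5 and 9.47 TPM in WT. Every Ndufa4 KO library lay below every library of the other genotypes, and the Ndufa4l3-miR147 KO libraries lay just below those of WT. The mean in Ndufa4 KO fell by 65.7% relative to WT, with a log2 fold change of -1.34 ± 0.14 (SE) and an adjusted p of 0.0014. This placed Gdf15 at rank 23 of 11133 genes from the lowest fold change, and seventh among the genes called. It was also the only gene of the 10 called with a change of at least 2-fold, as 0.296% of all genes were. Between the knockouts Gdf15 was higher in Ndufa4l3-miR147 KO by 1.11 ± 0.14 (adjusted p = 0.0059), and 0.162% of all genes were called with at least 2-fold there. The Ndufa4l3-miR147 KO against WT difference was -0.23 ± 0.14 with an adjusted p of 0.81. Both calls held under all 19 alternative settings tried, but a pseudocount of 5 TPM gave smaller values of -0.86 for Ndufa4 KO against WT and 0.69 between the knockouts.

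The transcription factors of the response moved less. Atf4, which is controlled chiefly at translation, stood at 244, 241 and 251 TPM in Ndufa4l3-miR147 KO, 180.4, 189 and 206 TPM in Ndufa4 KO and 239, 239.6 and 231 TPM in WT. The Ndufa4 KO libraries were the lowest and did not overlap those of either other genotype. Atf4 fell in Ndufa4 KO against WT by 0.30 ± 0.05 on the log2 scale (adjusted p = 0.013). It was higher in Ndufa4l3-miR147 KO than in Ndufa4 KO by 0.35 ± 0.05 (adjusted p = 0.012), and the difference of Ndufa4l3-miR147 KO from WT was 0.05 ± 0.05 (adjusted p = 0.98). Both calls were lost with median-of-ratios scaling, with adjusted p-values of 0.11 against WT and 0.094 between the knockouts, and with only the 6 libraries compared, with 0.068 and 0.088. The call against WT was also lost without WT replicate 1 (0.065) or WT replicate 2 (0.067), and the call between the knockouts without Ndufa4l3-miR147 KO replicate 1, 2 or 3 (0.059, 0.054 and 0.067).

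Ddit3 encodes CHOP, which takes the response towards cell death when stress lasts. Its abundance was 133, 139 and 140.0 TPM in Ndufa4l3-miR147 KO, 94.9, 98.7 and 114 TPM in Ndufa4 KO and 124, 116 and 117 TPM in WT. The 3 genotypes did not overlap, with Ndufa4l3-miR147 KO on top and Ndufa4 KO at the bottom. Ddit3 was higher in Ndufa4l3-miR147 KO than in Ndufa4 KO by 0.42 ± 0.07 (adjusted p = 0.017). Against WT the Ndufa4l3-miR147 KO value was 0.20 ± 0.07 (adjusted p = 0.44) and the Ndufa4 KO value -0.22 ± 0.07 (adjusted p = 0.094), and neither was called. Without Ndufa4 KO replicate 3, whose 114 TPM was the highest of its group, Ddit3 was called lower in Ndufa4 KO at -0.30 ± 0.04 (adjusted p = 0.0050). The call between the knockouts was lost with median-of-ratios scaling (0.094), with only the 6 libraries compared (0.097) and without Ndufa4l3-miR147 KO replicate 1, 2 or 3 (0.063, 0.081 and 0.084). With only the 6 libraries of Ndufa4l3-miR147 KO and WT fitted, the 0.20 difference had an adjusted p of 0.040. Calls over all genes rose in that fit from 48 to 306. Of its exonic bases, 6.13% overlap a second annotated gene on the same strand that is also named Ddit3. Which of these the single Ddit3 value covers is not given. On the opposite strand 3.97% overlap Mars and 0.76% Gm4189, and whether counting used strand is not given. Mars averaged 47.6 ± 2.65 TPM in Ndufa4l3-miR147 KO, 47.0 ± 1.05 TPM in Ndufa4 KO and 46.4 ± 1.62 TPM in WT, with no call.

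Atf5, a factor related to ATF4 and tied to the mitochondrial unfolded protein response, stood at 28.8, 29.1 and 33.0 TPM in Ndufa4l3-miR147 KO, 22.6, 25.02 and 29.0 TPM in Ndufa4 KO and 31.2, 30.8 and 31.1 TPM in WT. The Ndufa4 KO libraries lay below all WT libraries but overlapped those of Ndufa4l3-miR147 KO. Its Ndufa4 KO against WT value of -0.28 ± 0.09 was not called (adjusted p = 0.099). Leaving out Ndufa4 KO replicate 3, the highest of its group, gave -0.37 ± 0.07 against WT (adjusted p = 0.013) and 0.33 ± 0.07 between the knockouts (adjusted p = 0.031). With all libraries the value between the knockouts was 0.24 ± 0.09 (adjusted p = 0.19), and Ndufa4l3-miR147 KO against WT gave -0.04 ± 0.09 (adjusted p = 1). Of its exonic bases, 4.11% overlap Il4i1 and Nup62 on the opposite strand.

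Sesn2, a sestrin that restrains mTORC1 under amino acid shortage and oxidative stress, followed the same direction as Gdf15. It stood at 11.7, 11.9 and 12.5 TPM in Ndufa4l3-miR147 KO, 7.37, 8.43 and 7.71 TPM in Ndufa4 KO and 12.5, 12.2 and 11.5 TPM in WT. The Ndufa4 KO libraries were well below both other genotypes, whose libraries overlapped. Sesn2 fell in Ndufa4 KO against WT by 0.56 ± 0.08 on the log2 scale (adjusted p = 0.0048), a call kept under all 19 alternatives with adjusted p-values up to 0.039. Between the knockouts it was higher in Ndufa4l3-miR147 KO by 0.56 ± 0.08 (adjusted p = 0.0085), and this call was lost without Ndufa4l3-miR147 KO replicate 3 (0.051) and with only the 6 libraries compared in the fit (0.068). Ndufa4l3-miR147 KO against WT gave -0.0007 ± 0.08 (adjusted p = 1).

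Trib3 and Chac1 are strong outputs of ATF4 and CHOP in many cells. Trib3, a pseudokinase that feeds back on the pathway, stood at 15.0, 16.5 and 17.6 TPM in Ndufa4l3-miR147 KO, 11.8, 12.0 and 12.1 TPM in Ndufa4 KO and 12.7, 14.3 and 11.5 TPM in WT. The Ndufa4l3-miR147 KO libraries were the highest, and those of Ndufa4 KO and WT overlapped. Its difference was 0.33 ± 0.09 for Ndufa4l3-miR147 KO against WT (adjusted p = 0.28) and -0.09 ± 0.09 for Ndufa4 KO against WT (adjusted p = 0.58). Between the knockouts Trib3 was higher in Ndufa4l3-miR147 KO by 0.42 ± 0.09 at an adjusted p of 0.048, but this call was lost in 15 of 19 alternatives. Leaving out any 1 library except Ndufa4 KO replicate 3 ended it, with adjusted p-values of 0.060 to 0.19. Chac1, a glutathione-degrading enzyme, stood at 4.97, 5.61 and 4.59 TPM in Ndufa4l3-miR147 KO, 2.90, 3.65 and 3.70 TPM in Ndufa4 KO and 4.25, 4.07 and 4.34 TPM in WT. The genotypes did not overlap and were ordered as for Ddit3, yet no comparison was called. The values were 0.21 ± 0.11 for Ndufa4l3-miR147 KO against WT (adjusted p = 0.71), -0.25 ± 0.11 for Ndufa4 KO against WT (0.21) and 0.46 ± 0.11 between the knockouts (0.067). The Chac1 value between the knockouts was 0.51 ± 0.12 with an adjusted p of 0.039 once Ndufa4 KO replicate 3 was left out, and the adjusted p was 0.045 with no intensity trend.

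The amino acid enzymes split. Phgdh, the first enzyme of serine synthesis, stood at 27.6, 27.6 and 27.8 TPM in Ndufa4l3-miR147 KO, 20.3, 22.9 and 24.5 TPM in Ndufa4 KO and 33.2, 32.7 and 30.6 TPM in WT. The 3 genotypes did not overlap, with Ndufa4 KO lowest and WT highest. Phgdh fell in Ndufa4 KO against WT by 0.50 ± 0.08 on the log2 scale (adjusted p = 0.0068), and all 19 alternatives kept the call. Ndufa4l3-miR147 KO against WT gave -0.21 ± 0.08 (adjusted p = 0.47). Between the knockouts the value was 0.29 ± 0.08 (adjusted p = 0.081), and 0.35 ± 0.06 (adjusted p = 0.019) without Ndufa4 KO replicate 3.

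Psat1 catalyses the next step of the same pathway and went the other way. It stood at 83.9, 81.6 and 81.2 TPM in Ndufa4l3-miR147 KO, 108, 102 and 89.2 TPM in Ndufa4 KO and 76.6, 75.5 and 75.02 TPM in WT. Ndufa4 KO was highest and WT lowest, with no overlap between genotypes. Psat1 rose in Ndufa4 KO against WT by 0.39 ± 0.07 (adjusted p = 0.012). That call was lost without WT replicate 1, 2 or 3 (0.052, 0.058 and 0.055) and with only the 6 libraries compared (0.064). The value for Ndufa4l3-miR147 KO against WT was 0.12 ± 0.07 (adjusted p = 0.77) and that between the knockouts -0.27 ± 0.07 (adjusted p = 0.071). Psat1 was called lower in Ndufa4l3-miR147 KO than in Ndufa4 KO without Ndufa4 KO replicate 3 (-0.35 ± 0.04, adjusted p = 0.0032), the lowest library of that group, and with median-of-ratios scaling (-0.34, adjusted p = 0.013), quantile normalization (-0.32, adjusted p = 0.023) or the length trend removed (-0.34, adjusted p = 0.0061). The annotation places the processed pseudogene Gm3329 inside Psat1 on the opposite strand and Phgdh-ps1, a processed pseudogene of Phgdh, on chromosome 7, and reads that such copies could share were not resolved here.

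Asns, which makes asparagine and is a textbook ATF4 target, stood at 51.6, 53.2 and 54.2 TPM in Ndufa4l3-miR147 KO, 51.5, 50.2 and 54.2 TPM in Ndufa4 KO and 46.0, 46.3 and 47.9 TPM in WT. Both knockouts lay above all WT libraries and overlapped each other. The differences were 0.18 ± 0.05 for Ndufa4l3-miR147 KO against WT (adjusted p = 0.32) and 0.15 ± 0.05 for Ndufa4 KO against WT (adjusted p = 0.11), and no alternative called either. Between the knockouts the value was 0.03 ± 0.05 (adjusted p = 0.79).

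Separation of the libraries was about as frequent in both knockouts against WT and differed in direction. In Ndufa4l3-miR147 KO against WT, 8 of the 10 genes had libraries that did not overlap, 6 above and 2 below WT, where 23.9% of all genes did not overlap, 11.9% above and 12% below. In Ndufa4 KO against WT, 9 did not overlap, 2 above and 7 below WT, where 31.1% of all genes did not, 9.4% above and 21.7% below. In Ndufa4l3-miR147 KO against Ndufa4 KO, 8 did not overlap, 7 above and 1 below, where 25.3% of all genes did not, 18.3% above and 6.98% below. Without Ndufa4 KO replicate 3, the genes called were 7 of 10 for Ndufa4 KO against WT, 1 higher and 6 lower, and 9 of 10 between the knockouts, 8 higher and 1 lower in Ndufa4l3-miR147 KO. Calls over all genes rose in that fit too, to 14.2% (5.54% higher and 8.7% lower) for Ndufa4 KO against WT and 6.65% (4.45% higher and 2.2% lower) between the knockouts. Relative to the mean, spread within a genotype was widest in Ndufa4 KO for 9 of the 10 genes, Trib3 being the exception, and the coefficient of variation of Gdf15 was 24.1% in Ndufa4 KO, against 3.88% in Ndufa4l3-miR147 KO and 10.1% in WT. As an SD in TPM it was wider in WT for Gdf15 (0.885 in Ndufa4 KO and 1.08 in WT) and in Ndufa4l3-miR147 KO for Chac1 (0.519 in Ndufa4l3-miR147 KO and 0.448 in Ndufa4 KO).

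**Figure D3:**
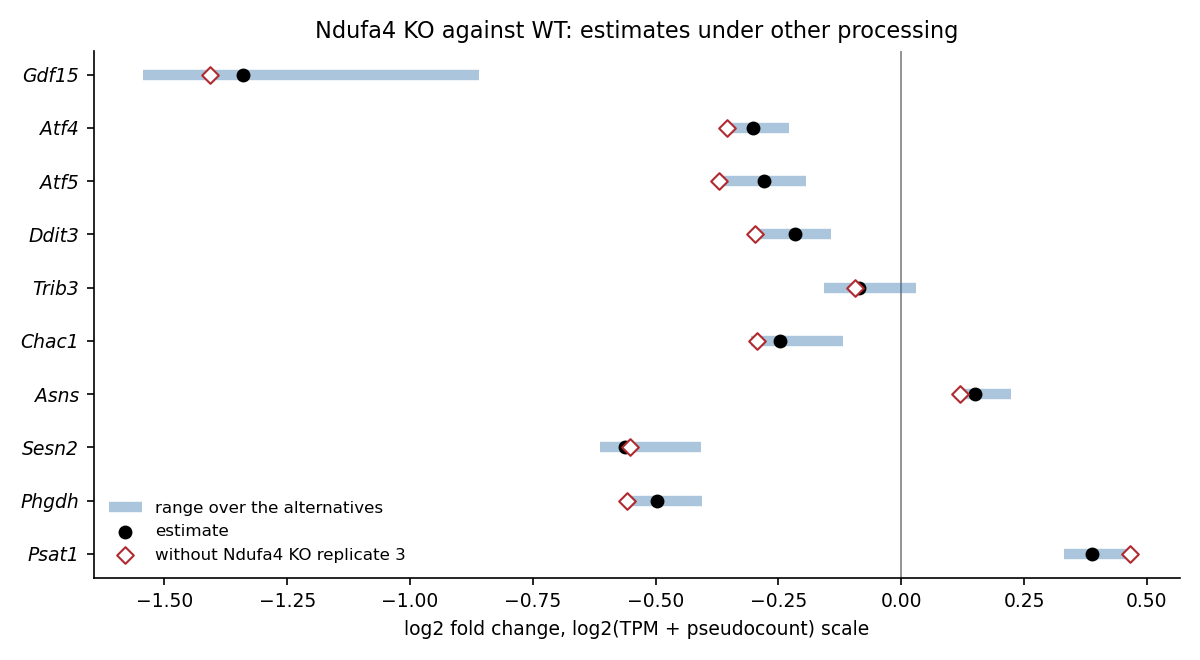
Ndufa4 KO against WT log2 fold change of each gene (black), its range over up to 19 alternatives (blue bar) and its value without Ndufa4 KO replicate 3 (open diamond). The Gdf15, Sesn2 and Phgdh ranges stay below 0 and that of Psat1 above 0, while the range of Trib3 crosses 0.

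Ratios of 2 transcripts within a library do not depend on scaling between libraries, and they were chosen after the values had been seen. With 3 libraries per group the smallest p of an exact two-sided permutation test is 0.10. Psat1 over Phgdh was 3.04, 2.96 and 2.92 in Ndufa4l3-miR147 KO, 5.32, 4.47 and 3.64 in Ndufa4 KO and 2.31, 2.31 and 2.45 in WT. All 3 comparisons were without overlap (exact permutation p = 0.10 each), with the transcript ratio highest in Ndufa4 KO and lowest in WT. Psat1 and Phgdh were each already separated in opposite directions in all 3, so their ratio had to separate and adds no support. Asns over Atf4 was 0.212, 0.221 and 0.216 in Ndufa4l3-miR147 KO, 0.286, 0.266 and 0.263 in Ndufa4 KO and 0.192, 0.193 and 0.207 in WT. It was likewise separated between all genotypes. In Ndufa4 KO against WT Asns alone already lay above and Atf4 below WT, so there the ratio had to separate. Gdf15 over Atf4 averaged 0.0364 ± 0.000679 in Ndufa4l3-miR147 KO, 0.0190 ± 0.00402 in Ndufa4 KO and 0.0452 ± 0.00371 in WT (SD, n = 3), again without overlap. In Ndufa4 KO against WT and between the knockouts both genes moved the same way, so there Gdf15 differed more than Atf4. In Ndufa4l3-miR147 KO against WT Gdf15 lay below and Atf4 above WT, so that ratio had to separate and adds no support. Chac1 over Atf4 averaged 0.0207 ± 0.00254 in Ndufa4l3-miR147 KO, 0.0178 ± 0.00161 in Ndufa4 KO and 0.0178 ± 0.000883 in WT, and its libraries overlapped in every comparison.

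**Figure D4:**
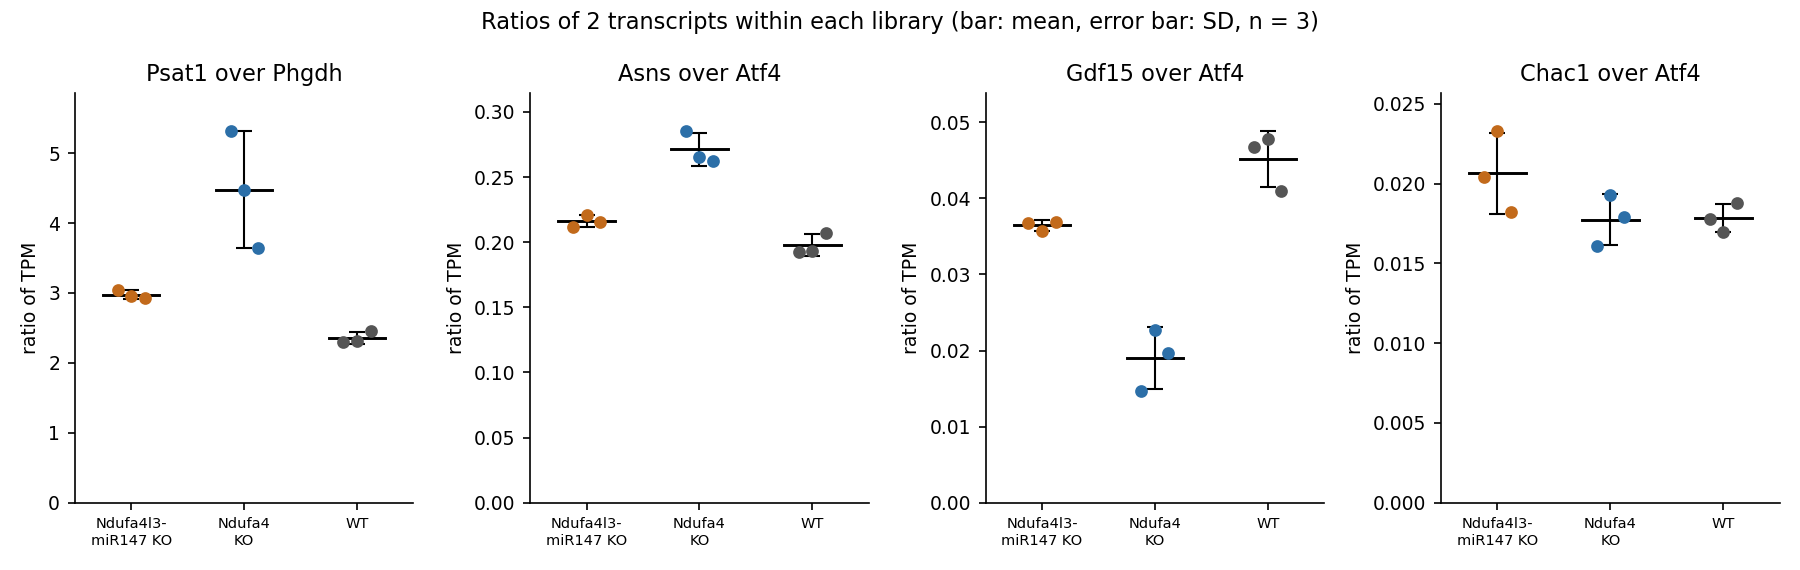
Ratio of the TPM of 2 genes in each library on linear axes from 0, with the mean as a bar and the SD as an error bar (n = 3). Psat1 over Phgdh and Asns over Atf4 are highest in Ndufa4 KO, Gdf15 over Atf4 is lowest there, and the points of Chac1 over Atf4 overlap across genotypes.

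Other genes of the pathway were taken from lists of symbols. Of 18 genes for the eIF2 kinases and control of eIF2, all were tested and 1 was called in Ndufa4 KO against WT, where 8.59% of all genes were. That was Eif2s2, the beta subunit of eIF2, which rose to 118 ± 9.49 TPM in Ndufa4 KO, against 96.7 ± 2.27 TPM in WT (log2 fold change 0.28 ± 0.06, adjusted p = 0.026). It was lost without any 1 of the WT libraries or without Ndufa4l3-miR147 KO replicate 2 or 3, with adjusted p-values up to 0.11 over the alternatives. Without Ndufa4 KO replicate 3 there were 4 called higher and 1 lower, where 5.54% and 8.7% of all genes were. Eif2s1, Eif2s3x and Eif2b5 joined Eif2s2, and Ppp1r15a, which brings phosphatase to eIF2alpha, was lower (-0.34 ± 0.09, adjusted p = 0.041). None of the 4 kinase genes was called. Eif2ak2, the interferon-induced kinase Pkr, had -0.34 ± 0.13 in Ndufa4 KO against WT (adjusted p = 0.13), Eif2ak1 (Hri) -0.19 ± 0.06 (0.076), Eif2ak3 (Perk) -0.22 ± 0.11 (0.23) and Eif2ak4 (Gcn2) -0.04 ± 0.11 (0.83). Oma1 and 0610009O20Rik, the older symbol of Dele1, carry mitochondrial stress to Hri, and their values were 0.04 ± 0.06 (adjusted p = 0.72) and -0.08 ± 0.06 (adjusted p = 0.48).

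Of 20 other targets of ATF4 and CHOP, 14 were tested and 2 were called lower in Ndufa4 KO against WT, where 5.76% of all genes were. Sqstm1, an autophagy receptor, fell to 219 ± 6.80 TPM in Ndufa4 KO, against 248.5 ± 4.32 TPM in WT (-0.18 ± 0.04, adjusted p = 0.031). Bbc3, the death-promoting Puma and also a p53 target, had -0.51 ± 0.14 at an adjusted p of 0.0496. The median of the 14 was -0.15 and 13 lay below 0, where 64.5% of all genes did. Under median-of-ratios scaling 0 were called, as also without any 1 of the WT or Ndufa4l3-miR147 KO libraries. The count was 3, Ppp1r15a included, when Ndufa4 KO replicate 3 was left out, where 8.7% of all genes were called lower. Between the knockouts Sqstm1 (0.23 ± 0.04, adjusted p = 0.019) and Atf3, a stress-induced repressor (0.28 ± 0.05, adjusted p = 0.023), were called higher in Ndufa4l3-miR147 KO, where 2.2% of all genes were. Both were lost with median-of-ratios scaling and without any 1 of the Ndufa4l3-miR147 KO libraries (adjusted p-values up to 0.19 and 0.14). Atf3 stood at 167 ± 4.77 TPM in Ndufa4l3-miR147 KO, 137 ± 4.42 TPM in Ndufa4 KO and 139 ± 5.88 TPM in WT. Its Ndufa4l3-miR147 KO against WT value was 0.26 ± 0.05 with an adjusted p of 0.087, and 0.26 ± 0.04 with an adjusted p of 0.022 without Ndufa4 KO replicate 3, the fit sharing its spread estimate over genotypes. Of all genes, 0.997% were called higher in that comparison without Ndufa4 KO replicate 3, against 0.243% with all 9 libraries.

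Amino acid supply was read through transporters and enzymes. Of 10 transporters, 7 were tested, and in Ndufa4 KO against WT 2 were called higher and 1 lower, where 2.83% of all genes were called higher and 5.76% lower. Slc3a2 and Slc7a5 make up the large neutral amino acid exchanger, and they rose by 0.29 ± 0.05 (adjusted p = 0.0096) and 0.36 ± 0.09 (adjusted p = 0.037). Slc38a2, the stress-responsive glutamine carrier Snat2, fell to 49.3 ± 13.4 TPM in Ndufa4 KO, against 79.9 ± 3.70 TPM in WT (-0.72 ± 0.17, adjusted p = 0.035). Each of the 3 calls was lost in some alternatives, with adjusted p-values up to 0.052 for Slc3a2, 0.13 for Slc7a5 and 0.12 for Slc38a2, leaving out WT replicate 1 or 3 among them. Without Ndufa4 KO replicate 3 the cationic carrier Slc7a1 was called too (0.31 ± 0.06, adjusted p = 0.011), and in Ndufa4l3-miR147 KO against WT Slc3a2 (0.20 ± 0.04, adjusted p = 0.049) and Slc38a2 (-0.33 ± 0.06, adjusted p = 0.041) were called. Over all genes, that fit called 5.54% higher and 8.7% lower for Ndufa4 KO against WT. For Ndufa4l3-miR147 KO against WT it called 1.78% of all genes, against 0.431% with all 9 libraries. Of 20 genes of serine, one-carbon and proline metabolism, 17 were tested and 1 was called, a share near the 8.59% of all genes. That was Mthfd1l, a mitochondrial formate-producing enzyme, which rose by 0.36 ± 0.08 (adjusted p = 0.030, up to 0.11 over the alternatives and lost without any 1 library except Ndufa4 KO replicate 3). Psph, the enzyme after Psat1, had -0.19 ± 0.09 (adjusted p = 0.23). Of 20 cytosolic tRNA synthetases, 1 was called, again no more than the share over all genes, namely the interferon-gamma-induced Wars at -0.19 ± 0.05 (adjusted p = 0.045), which 15 of 19 alternatives did not call. Without Ndufa4 KO replicate 3, 2 of the synthetases were called higher and 2 lower, where 5.54% and 8.7% of all genes were. Between the knockouts Sars, the seryl enzyme, was called higher in Ndufa4l3-miR147 KO (0.22 ± 0.05, adjusted p = 0.042), and 14 of 19 alternatives did not call it.

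**Figure D5:**
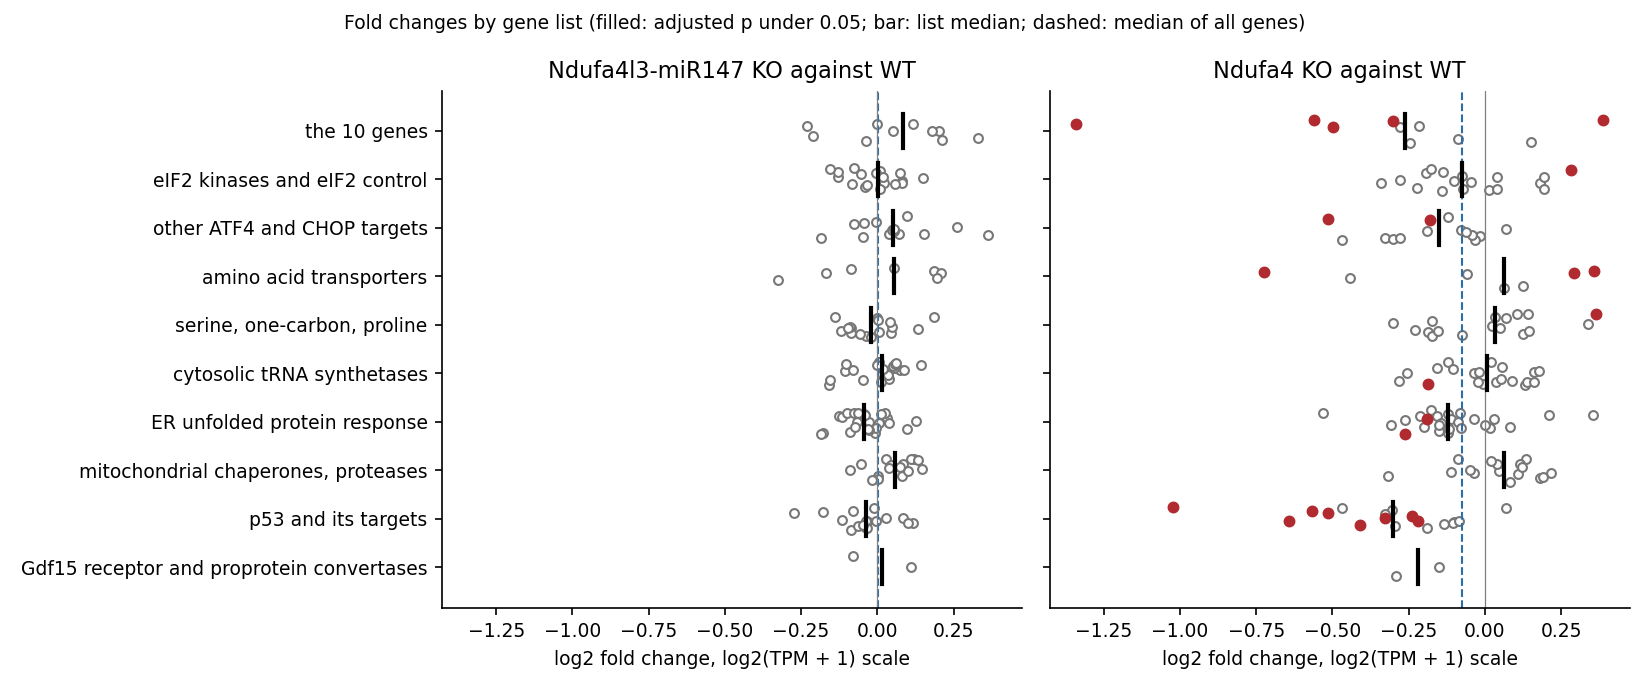
Log2 fold change of each tested gene against WT, with the 10 genes in the top row and 1 row per list under it, filled where called, with the list median as a bar and the median of all genes dashed. No point is filled for Ndufa4l3-miR147 KO, and for Ndufa4 KO the list of p53 and its targets has 8 filled points, all below 0.

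Gdf15 is also a target of p53, so that list was read beside it. Of 19 genes for p53 and its targets, 18 were tested and 8 were called in Ndufa4 KO against WT, all lower, with a list median of -0.30 and 17 of 18 below 0. Over all genes 5.76% were called lower, the median was -0.08 and 64.5% lay below 0. Zmat3, an RNA-binding tumour suppressor, fell to 5.15 ± 0.545 TPM in Ndufa4 KO, against 8.56 ± 0.139 TPM in WT (-0.64 ± 0.09, adjusted p = 0.0052), and kept the call under all 19 alternatives. Cdkn1a, the cell cycle inhibitor p21, fell by 0.22 ± 0.04 (adjusted p = 0.016) and Sesn1, a sestrin like Sesn2, by 0.41 ± 0.08 (adjusted p = 0.016), and both were lost without any 1 of the WT libraries (adjusted p-values up to 0.19 and 0.074 over the alternatives). Trp53 itself had 0.07 ± 0.06 (adjusted p = 0.50). The count was 4 with median-of-ratios scaling, 1 without any 1 of the WT libraries, 5 without any 1 of the Ndufa4l3-miR147 KO libraries and 9 without Ndufa4 KO replicate 3. Calls lower over all genes moved too, from 641 to 442 with median-of-ratios scaling and to 969 without Ndufa4 KO replicate 3. They were 168 to 191 without 1 WT library and 383 to 431 without 1 Ndufa4l3-miR147 KO library. Between the knockouts Zmat3 (0.56 ± 0.09, adjusted p = 0.016), Phlda3 (0.60 ± 0.11, adjusted p = 0.024) and Cdkn1a (0.21 ± 0.04, adjusted p = 0.032) were called higher in Ndufa4l3-miR147 KO, where 2.2% of all genes were. Each was lost without any 1 of the Ndufa4l3-miR147 KO libraries (adjusted p-values up to 0.14, 0.11 and 0.27). In Ndufa4l3-miR147 KO against WT 0 of the 18 were called by limma and 1 had an unadjusted p under 0.05, against 0.431% and 8.24% of all genes. Sesn1 was called lower in that comparison without Ndufa4 KO replicate 3 (-0.27 ± 0.05, adjusted p = 0.049), where 0.781% of all genes were.

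Neighbouring stress programmes were read in the same way. Of 26 genes of the endoplasmic reticulum unfolded protein response, all tested, 2 were called lower in Ndufa4 KO against WT, a share near the 5.76% of all genes. Xbp1, its central transcription factor, fell in Ndufa4 KO against WT by 0.26 ± 0.05 (adjusted p = 0.019) and Derl1, of protein retrotranslocation, by 0.19 ± 0.05 (adjusted p = 0.048). Both were lost with median-of-ratios scaling and without any 1 of the WT libraries, with adjusted p-values up to 0.086 and 0.36 over the alternatives. The list count ran from 0 to 4 lower as libraries were left out in turn, where that over all genes ran from 168 to 969. The abundant chaperone Hspa5 was at 1598 ± 49.1 TPM in Ndufa4l3-miR147 KO, 1533 ± 118 TPM in Ndufa4 KO and 1570 ± 27.6 TPM in WT. Of 16 mitochondrial chaperones and proteases 0 were called by limma in any comparison, and 2 had an unadjusted p under 0.05 in Ndufa4 KO against WT, 0 in the others. The shares of all genes at that unadjusted p were 26.1% for Ndufa4 KO against WT, 8.24% for Ndufa4l3-miR147 KO against WT and 20.3% between the knockouts. Without Ndufa4 KO replicate 3 Hspd1, the Hsp60 chaperonin, was called higher in Ndufa4 KO than in WT (0.26 ± 0.03, adjusted p = 0.0024), as was Hspa9, the Hsp70 of the matrix (0.20 ± 0.04, adjusted p = 0.012), and without Ndufa4 KO replicate 1 Hspe1 (0.23 ± 0.05, adjusted p = 0.027) and Clpp (0.35 ± 0.08, adjusted p = 0.036) were. The first fit thus called 2 of the 16 higher, where 5.54% of all genes were. Over all 11133 genes, 617 were called higher in the first fit and 351 in the second, against 315 with all 9 libraries. The most abundant were Phb2 and Phb with 0.19 ± 0.09 (adjusted p = 0.20) and -0.11 ± 0.15 (adjusted p = 0.66) in Ndufa4 KO against WT. Of 6 genes for the Gdf15 receptor and proprotein convertases 2 were tested. Furin, a protease that matures growth factors of this superfamily, had -0.15 ± 0.05 in Ndufa4 KO against WT (adjusted p = 0.11), and Pcsk7 had -0.29 ± 0.15 (adjusted p = 0.27). Furin was called higher in Ndufa4l3-miR147 KO than in Ndufa4 KO (0.26 ± 0.05, adjusted p = 0.032), and this was lost with median-of-ratios scaling and without any 1 of the WT or Ndufa4l3-miR147 KO libraries (adjusted p up to 0.32). In Ndufa4l3-miR147 KO against WT, 0 of the 131 distinct genes tested from these lists were called by limma and 11 had an unadjusted p under 0.05, against 0.431% and 8.24% of all genes. Of the 2 most abundant genes of each list, Atf3 had the highest value there, 0.26, and Slc38a2 the lowest, -0.33.

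The genes whose pattern over the 9 libraries was most like that of Gdf15 were ranked by Pearson's r of log2(TPM + 1), among 8474 named genes with a mean of at least 5 TPM. The highest were Cnnm3, Gas6, Sik3, Neu1 and Map4k1, with r between 0.98 and 0.99. The lowest were H2-Aa, Ptbp1 and Gtpbp4, with r between -0.99 and -0.98. Of the 10 genes themselves, Sesn2 had an r of 0.98, Phgdh 0.96, Atf4 0.94, Atf5 0.86, Ddit3 and Chac1 0.75 and Trib3 0.51, whereas Asns had -0.47 and Psat1 -0.94. The points share 3 libraries of 1 genotype in which Gdf15 was low. Over the 6 libraries without Ndufa4 KO, r was 0.98 for Cnnm3, 0.90 for Gas6 and 0.84 for Sik3, but 0.72 for Neu1 and 0.47 for Map4k1. Among the lowest it was -0.66 for H2-Aa, -0.85 for Ptbp1 and -0.67 for Gtpbp4. Of the other genes of the 10, Phgdh had an r of 0.94 over these 6 libraries, but Sesn2 0.49 and Atf5 0.37. The r was -0.24 for Atf4, -0.44 for Trib3, -0.72 for Ddit3, -0.73 for Psat1, -0.85 for Chac1 and -0.86 for Asns.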

How the data were processed

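Polyadenylated RNA of 9 macrophage libraries had been sequenced, 3 for each of 3 genotypes. The tools named, per the submitters' processing notes, are kallisto, DESeq2 and edgeR and the builds mm10 and GRCm39, with no role for any. For read filters, annotation and strand, nothing was given in the sources used here, versions included. The authors deposited TPM values for 29763 named genes and 1 unnamed entry (at most 0.00303% of a library), which was left out. The table sums to 913497 to 921705 TPM per library, so 7.83% to 8.65% lies outside it. TPM keeps no read depth, so the depth behind a value is unknown and intervals for counting error cannot be had.

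The deposited TPM were transformed to log2(TPM + 1), which understates changes of low genes, and the 11133 genes reaching 1 TPM in 3 or more libraries were fitted with limma 3.58.1 in R 4.3.3. The fit had 1 mean per genotype over all 9 libraries, an intensity trend and two-sided tests, with Benjamini-Hochberg adjustment over all genes and a threshold of 0.05. The 19 alternatives were pseudocounts of 0.1 and 5 TPM, no filter, a filter at a mean of 5 TPM, median-of-ratios scaling, quantile normalization, a fit of only the 6 libraries compared, no intensity trend, a replicate block, removal of a length trend, and each of the 9 libraries left out in turn. The fit was checked on data simulated for Ndufa4 KO against WT with 11133 genes, where 90% of 100 genes changed by a log2 of 1 and 49% of 100 changed by 0.5 were recovered. Lengths and overlaps came from GENCODE M21 and promoters from RefSeq.

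The 10 genes and the lists were chosen with earlier results of these data known. All 10 are named. Of each list and comparison, up to 3 called genes per direction with the smallest adjusted p are named, or the 2 most abundant where none was called, and for likeness the 5 highest and 3 lowest r. The eIF2 kinase genes, Oma1, Dele1, Psph, Trp53, Mars, Hspa5 and the genes whose call appeared only with a library left out were named outside this rule, after their values had been seen. All 205 list symbols were found, with older symbols standing for 2, and a few genes stand in 2 lists.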

Additional observations from a re-analysis of the deposited data

How the results depend on the processing

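Across 19 alternatives, 567 values of the 10 genes were recomputed, of which 521 kept their side of the threshold, 35 lost their call and 11 gained one. None of them was reversed while called, although 10 of 366 uncalled values changed sign. Chac1 has no value with a filter at a mean of 5 TPM. With only the 6 libraries compared in the fit, the genes called were 1 of 10 for Ndufa4l3-miR147 KO against WT, 3 for Ndufa4 KO against WT and 1 between the knockouts. Median-of-ratios scaling left 4 for Ndufa4 KO against WT and 3 between the knockouts, 2 higher and 1 lower. Leaving out 1 library at a time gave 0 in every case for Ndufa4l3-miR147 KO against WT, 3 to 7 for Ndufa4 KO against WT and 1 to 9 between the knockouts. The lowest counts were 3 without WT replicate 1 or 2 and 1 without Ndufa4l3-miR147 KO replicate 3, and both highest counts came without Ndufa4 KO replicate 3. Eif2s3x, a subunit of eIF2, turned from 0.11 to -0.23 (adjusted p = 0.040) between the knockouts without Ndufa4 KO replicate 3, its values running from -0.23 to 0.31 as libraries were left out in turn. The cause was not tested. Over all genes, calls ranged from 13 to 306 (48 as reported) for Ndufa4l3-miR147 KO against WT, from 238 to 1586 (956) for Ndufa4 KO against WT and from 64 to 740 (361) between the knockouts.

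With the replicate number as a block, the genes called were 0, 5 and 4 of 10 in the 3 comparisons, Trib3 being lost between the knockouts (adjusted p = 0.093), and over all genes 24 for Ndufa4l3-miR147 KO against WT and 661 for Ndufa4 KO against WT. In 5 of 18 cases a library correlated best with the same-numbered library of another genotype. Deviations of same-numbered libraries from their group means correlated at -0.14 to 0.18. With 3 libraries per genotype this cannot settle whether same-numbered libraries were prepared together, and the labels give only the number. The Pearson r alternatives were chosen after seeing the data, and with another scaling or 1 library left out r with Gdf15 stayed at 0.92 or above for the 5 genes most like it and at -0.95 or below for the 3 least like it. These genes were picked by r over the same 9 libraries, so values that stay near the extremes add no support. Without all 3 Ndufa4 KO libraries r was as low as 0.47 (Map4k1) among the 5 and as high as -0.66 (H2-Aa) among the 3. Those 6 libraries had also served to pick the genes.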

Other observations

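Several textbook outputs of the integrated stress response were barely present in these macrophages and entered no test. Over all 9 libraries Fgf21, the other endocrine stress cytokine besides Gdf15, averaged 0.00782 TPM and Adm2, a secreted peptide, 0.011 TPM. Stc2, a secreted stress glycoprotein, averaged 0.0489 TPM and the lipoprotein receptor Vldlr 0.412 TPM. The transsulfuration enzymes Cth and Cbs averaged 0.171 and 0.0357 TPM, and the cystine carrier Slc7a11 averaged 0.255 TPM. The Gdf15 receptor gene Gfral and its partner Ret averaged 0.00327 and 0.0125 TPM. These genes were picked for their low values after those had been seen, and TPM gives no limit on what such a level can hold.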
